A study of Mus musculus with 12 samples.

Results

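EML1 cells with the empty vector pWPI were compared between day 7 of treatment with IL7 and FLT3L, 2 arrays, and the untreated state, 2 arrays. These 4 of the 12 arrays of the series were chosen by sample title, and no measured value entered the choice. EML1 is a line of multipotent mouse blood progenitors. It arose when marrow cells of male BDF1 mice were infected with LRARalpha403SN, a retroviral vector, which cells on all 12 arrays therefore carry. The other arrays hold empty-vector cells at day 5 and cells with TEL-AML1 in the same lentiviral vector, untreated and at day 5 and day 7. The labels' culture protocol describes plating 50000 EML1 cells on the stromal line OP9 with IL7 at 10 ng/ml, FLT3L at 80 ng/ml and β-mercaptoethanol. The sample titles name only the cytokines and the time, so cytokines, stroma, medium and serum cannot be told apart as the source of any difference given here. Nothing in the labels makes replicates separate cultures, so each p-value covers only array-to-array spread, possibly technical.

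IL7 is a growth factor of early lymphoid cells that signals through the IL7 receptor, the common gamma chain and the JAK-STAT pathway. FLT3L acts through the receptor tyrosine kinase FLT3 on multipotent and early lymphoid progenitors. OP9 stroma, which makes chemokines and matrix, is used in culture to carry progenitors towards the B lineage, whose entry is controlled by TCF3, EBF1 and PAX5.

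Each array gave 1 linear intensity per probe set, with array medians between 68.1 and 72.9, and the small number of arrays limits the precision of each value. Tests covered 12337 genes whose mean intensity was over 60.1, below which 40% of all probe sets lay. Differences, day 7 minus untreated, are given in log2(intensity + 16) with the standard error after ±, and understate the change of dim genes. The limma fit gave the adjusted p-values, by Benjamini-Hochberg across all tested genes. The replicates correlated at 0.9892 across genes at day 7 and at 0.9963 in untreated cells, while arrays of different states correlated at 0.9793 to 0.9869. The median replicate gap was 0.0954 at day 7 and 0.0642 untreated on the log2 scale. The progenitor receptor gene Kit was bright on all 4 arrays, at 2450 and 2624 on day 7 arrays and 2687 and 2665 on untreated arrays (-0.08 ± 0.10, adjusted p = 0.638).

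At day 7, 31 of 40 tested interferon genes and 12 of 18 MHC class I route genes were called higher, and 11 of 22 ATF4 and ER stress genes were called lower. The B-cell factor genes Ebf1 and Pax5 did not pass the test. In all, 1909 genes passed at an adjusted p under 0.05, 15.5% of those tested. Of these, 775 were higher (6.28%) and 1134 lower (9.19%), and the arrays of the 2 states did not overlap for any of them. Without overlap were also 31.3% of all tested genes above and 30.9% below, called or not. Changes of more than 2-fold were rarer, with 81 genes higher (0.657%) and 39 lower (0.316%). Of the 81, 20 were on the interferon list, 4 on the MHC class I list and 2 on the stroma list. The total fell without day 7 replicate 1 or either untreated array and rose without day 7 replicate 2. It was 290 when only these 4 arrays were fitted and 658 with the 6 empty-vector arrays. Median centring of the arrays gave 536 higher and 1598 lower calls, or 25.1% higher against 40.6% in the values as deposited.

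Interferons bind receptors that activate STAT and IRF factors, which switch on a set of antiviral genes. Of 49 genes on the interferon list, 43 had a probe set and 40 were tested. Of the 40, 31 were called higher and 0 lower, beside 6.28% and 9.19% of all tested genes. All 40 lay higher on both day 7 arrays than on both untreated arrays, beside 31.3% of all tested genes. Their median difference was 1.03, against 0.01 for all tested genes, with a range of 0.18 to 3.74. The count was 27 without day 7 replicate 1, 29 without day 7 replicate 2 and 24 to 25 without an untreated array.

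The genes of the type I receptor did not pass the test. Ifnar1, a signalling chain, measured 407 and 460.3 on day 7 arrays and 422 and 440.0 on untreated arrays (0.01, adjusted p = 0.972). Its partner Ifnar2 measured 1246 and 1132 at day 7 and 1136 and 1242 untreated (-0.00, adjusted p = 0.999), so for both chains the states overlapped. Among the transcription factors, Irf7, the amplifier of interferon gene expression, measured 850 and 768 on day 7 arrays and 114 and 113 on untreated arrays (2.67 ± 0.10, adjusted p = 5.96e-07). Irf9, the DNA-binding part of the complex that type I interferon activates, measured 793 and 705 at day 7 against 356 and 327 untreated (1.10, adjusted p = 7.2e-05). Stat2, its partner, measured 339.6 and 329 at day 7 against 249 and 229 untreated and did not pass (0.46, adjusted p = 0.0741). All 3 lay higher on both day 7 arrays than on both untreated arrays, as did 31.3% of all tested genes. Irf7 and Irf9 passed the test and Stat2 did not, and Irf7 had the largest difference of the 3.

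A feedback gene and a sensor relative were also called higher. Usp18, a protease that removes ISG15 and damps the type I interferon receptor, measured 1658 and 1204 on day 7 arrays and 92.4 and 89.2 on untreated arrays (3.74 ± 0.21, adjusted p = 6.72e-06), the largest rise among all called genes. Dhx58, a relative of the viral RNA sensor RIG-I, measured 474 and 366 at day 7 against 79.3 and 70.9 untreated (2.25 ± 0.14). Ifih1, the gene of the RNA sensor MDA5 on the same list, measured 69.4 and 72.7 at day 7 against 58.5 and 59.3 untreated and did not pass (0.22, adjusted p = 0.444).

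Several antiviral effector genes were among the 15 highest calls. Ifit1, which binds foreign RNA, measured 822 and 497 on day 7 arrays and 53.6 and 53.3 on untreated arrays (3.24 ± 0.20, adjusted p = 1.47e-05). Ifitm3, which blocks virus entry at membranes, measured 851 and 1346 at day 7 and 74.9 and 76.8 untreated (3.56 ± 0.40, adjusted p = 0.000767). In Ifit1 replicate 1 was the higher day 7 array and in Ifitm3 replicate 2, and in both genes the lower day 7 array lay far above the untreated pair. The oligoadenylate synthetase genes Oas2 and Oas3, whose product activates an RNase, both rose. Oas2 measured 805 and 388 at day 7 against 78.1 and 67.7 untreated (2.70 ± 0.31), and Oas3 measured 430.0 and 328 at day 7 against 67.7 and 66.1 untreated (2.24 ± 0.15). Their relative Oasl2 rose by 3.21 ± 0.17. Rtp4, a chaperone of membrane receptors that interferon induces, rose by 3.09 ± 0.14, and Xaf1, a binding partner of the apoptosis inhibitor XIAP, by 2.57 ± 0.13. The TRIM family genes Trim30a (2.71 ± 0.10) and Trim30d (2.57 ± 0.19) and the DNA-binding gene Ifi203 (2.27 ± 0.20) were also among the 15 highest. The calls of all these genes held without each single array, with adjusted p-values of at most 0.0142. Family members such as Trim30a and Trim30d, the Oas genes and Ifi203 are similar in sequence, and how far their probe sets were shared was not tested.

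**Figure D1:**
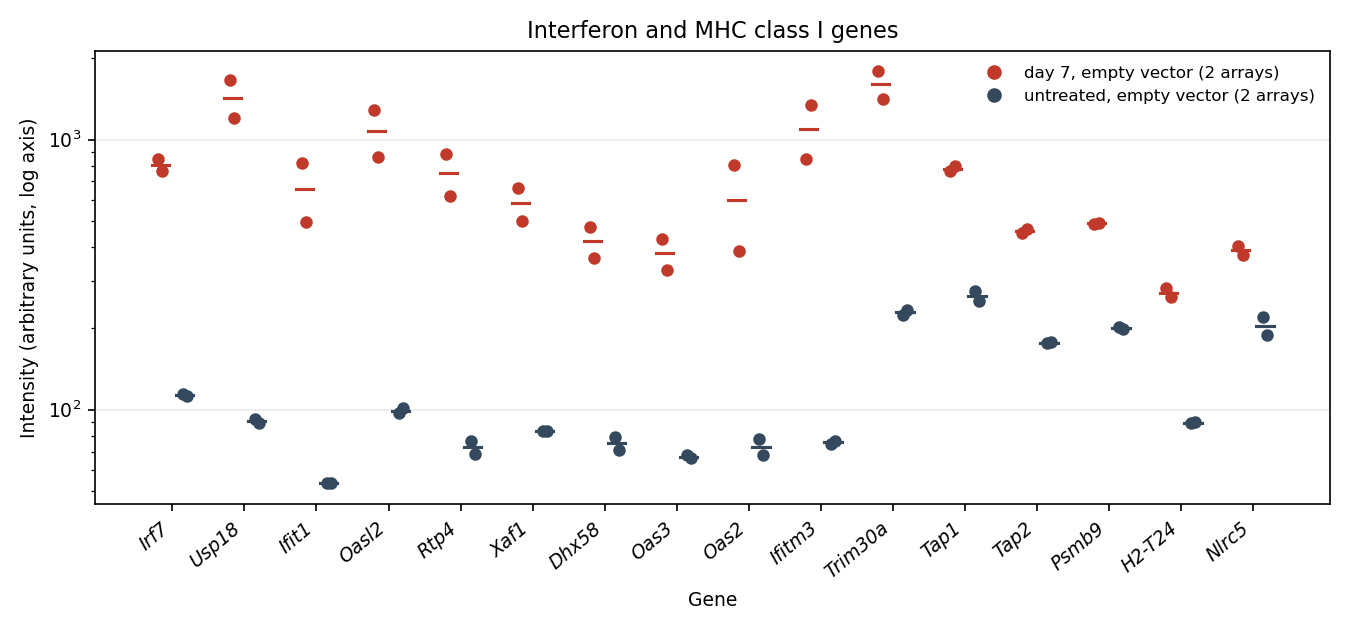
Intensity (arbitrary units, log axis) of 16 interferon and MHC class I genes, with each point an array and each bar the mean of 2 arrays, day 7 left of untreated. In every gene shown, both day 7 arrays lie above both untreated arrays, as in all 775 genes called higher, and Usp18 has the largest log2 difference (3.74).

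The interferon-stimulated response element, to which IRF9 complexes bind, was searched as GAAA, any 2 bases and GAAA, on both strands of 300-base promoter windows from RefSeq (GRCm38.p6). It was found in 3.44% of 32851 windows, in 3.43% of 9872 tested genes with a window, and in 8.31% of the 614 genes called higher. Of the 59 genes with a window that rose more than 2-fold, 16 held it (27.12%), and of 30 interferon list genes 15 did (50.0%). Among the 933 genes called lower the share was 3.54%, and among the 31 that fell more than 2-fold 3.23%. These shares describe letters in a window and not binding. The stretches from base -200 to base -1 before the start of Ifit1, with 2 matches, and of Oas3, with 1 match, are shown because both genes rose strongly. Capitals mark the matches, 5′ to 3′ on the gene's strand.
Ifit1, chr19:34640689-34640888, plus strand: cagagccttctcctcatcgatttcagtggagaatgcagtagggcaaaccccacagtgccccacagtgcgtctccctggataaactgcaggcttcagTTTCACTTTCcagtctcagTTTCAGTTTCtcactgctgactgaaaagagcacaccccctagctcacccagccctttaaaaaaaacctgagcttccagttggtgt
Oas3, chr5:120777660-120777859, minus strand: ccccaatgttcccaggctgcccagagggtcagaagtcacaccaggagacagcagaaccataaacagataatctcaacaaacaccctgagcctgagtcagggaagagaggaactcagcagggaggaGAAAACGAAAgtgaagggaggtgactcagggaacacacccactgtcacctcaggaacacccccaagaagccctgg
In Ifit1 the capitals are the element as read on the opposite strand, and in Oas3 as read on the gene's strand.

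MHC class I molecules present peptides that the immunoproteasome cuts and the TAP transporter carries into the endoplasmic reticulum. Of 18 tested genes of this route, 12 were higher and 0 lower, beside 6.28% and 9.19% of all tested genes, with a median of 0.67. Tap1, a chain of the transporter, measured 764 and 800.1 on day 7 arrays and 275 and 254 on untreated arrays (1.51 ± 0.11, adjusted p = 2.79e-05). The other chain, Tap2, measured 453 and 467 at day 7 against 176 and 178 untreated (1.30 ± 0.10). Psmb9, a catalytic subunit of the immunoproteasome, measured 489 and 491 at day 7 against 203 and 198 untreated (1.22 ± 0.10). For these genes the 2 day 7 arrays lay close together, unlike for the antiviral effectors. Nlrc5, the transactivator of class I genes, rose by 0.88 ± 0.10 (adjusted p = 0.000849), and the nonclassical class I genes H2-T24 and H2-T23 by 1.44 ± 0.13 and 0.94 ± 0.11. B2m, the light chain, measured 4788 and 4637 at day 7 against 3580.5 and 3662 untreated (0.38, adjusted p = 0.00671). Its adjusted p rose to as much as 0.0581 without either untreated array, whereas the other calls named here held without each single array. Class I genes are close copies of each other and their probe sets may share signal. The list count was 8 without untreated replicate 1 and 6 without untreated replicate 2.

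**Figure D2:**
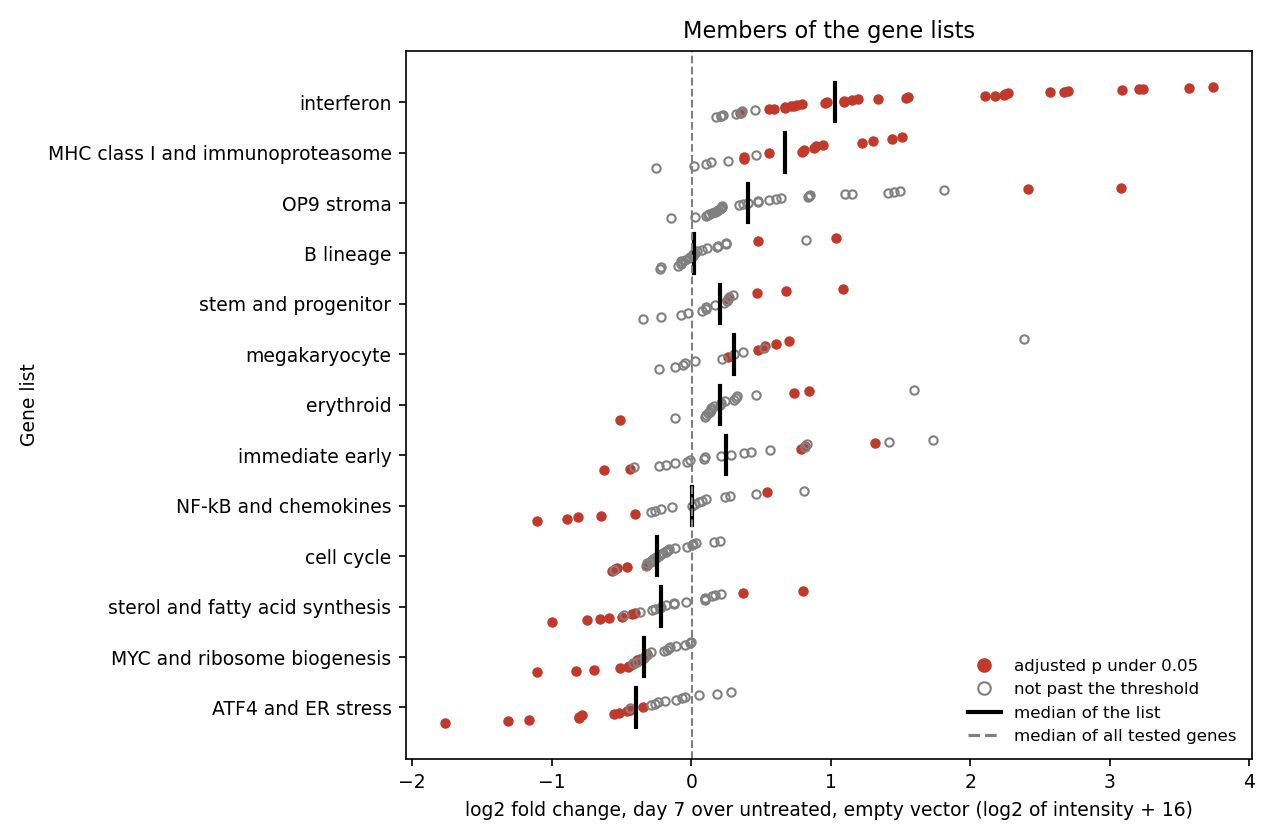
Log2 fold change, day 7 over untreated, of each tested member of 13 gene lists, with filled points past the threshold, open points not, a black bar at each list's median and a dashed line at the median of all tested genes. The interferon list (median 1.03) and the MHC class I list (0.67) lie to the right, and the ATF4 list (-0.39) and the MYC list (-0.34) to the left.

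Genes of OP9 stroma, a cell type that the protocol names, differed between the 2 day 7 arrays. The list's summed intensity was 6332.5 on day 7 replicate 1 and 10122 on day 7 replicate 2, against 5375.4 and 5087.1 on the untreated arrays. Of 33 tested stroma genes, 2 were called higher and 0 lower, a count near the 6.28% higher among all tested genes. Their median was 0.41, and 32 of the 33 lay above 0. For 28 of the 33 both day 7 arrays lay above both untreated arrays, and for 1 below. Among all tested genes those shares were 31.3% and 30.9%. Day 7 replicate 2 was higher than replicate 1 for 31 of the 33. Fn1, the matrix protein fibronectin, measured 276 and 1313 at day 7 against 58.8 and 56.4 untreated (3.08 ± 0.82, adjusted p = 0.0324). Bgn, the proteoglycan biglycan, measured 216 and 712 at day 7 against 64.3 and 58.2 untreated (2.41 ± 0.65, adjusted p = 0.0334). Both calls ended without day 7 replicate 2 or either untreated array, with adjusted p up to 0.162. The list's count was 4 without day 7 replicate 1 and 0 without any other of the 4 arrays. Cxcl12, the chemokine that holds progenitors near stroma, measured 119 and 485 at day 7 against 58.4 and 57.9 untreated (1.81 ± 0.67, adjusted p = 0.0936). Thbs1, a thrombospondin gene on the megakaryocyte list, had the same split, with 177 and 948 at day 7 against 67.5 and 65.6 untreated (2.39 ± 0.77, adjusted p = 0.0617). OP9 cells can also form adipocytes, and of 9 tested adipocyte genes 2 were higher, among them Agpat2, an enzyme of triglyceride synthesis, with 433 and 415 at day 7 against 289 and 283 untreated (0.54 ± 0.075, adjusted p = 0.00238). Day 7 replicate 2 was higher than replicate 1 for 6 of the 9, but not for Agpat2. Adipoq, the adipocyte hormone adiponectin, lay below the filter.

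The interferon list's summed intensity was 19801 on day 7 replicate 1 and 17215 on day 7 replicate 2, against 5555.4 and 5639.2 on the untreated arrays. The median interferon difference from the untreated mean was 1.04 on day 7 replicate 1 and 0.91 on replicate 2, and the stroma list's median on the same arrays was 0.18 and 0.65. At day 7 the interferon sum was higher on the array with the lower stroma sum, and at day 5 on the array with the higher one. The day 5 interferon sums were 22436 on replicate 1 and 18881 on replicate 2, and the day 5 stroma sums 15235 and 11883 in that order. The part of stroma RNA in the interferon values was not tested. In these bulk samples, more cells of a type and more RNA per cell cannot be told apart.

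**Figure D3:**
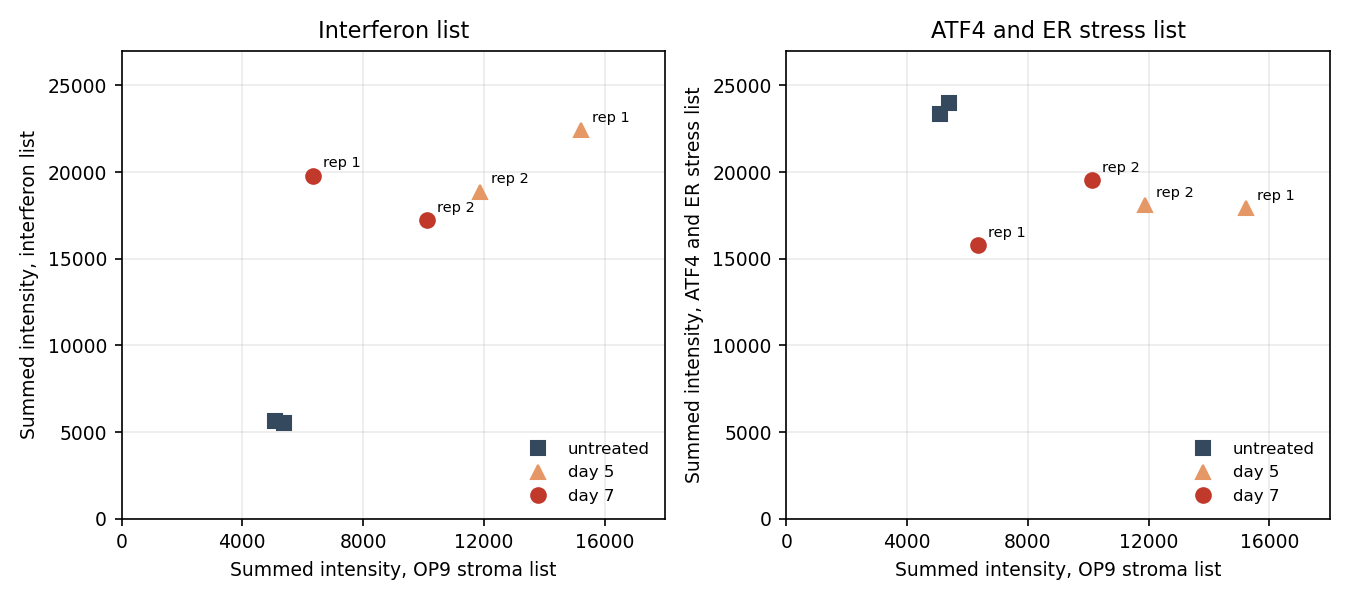
Summed intensity of the interferon list (left) and of the ATF4 and ER stress list (right) against that of the OP9 stroma list, 1 point per empty-vector array for untreated cells, day 5 and day 7. Treated arrays have higher stroma and interferon sums and lower ATF4 sums than untreated arrays, with stroma sums of 6332.5 and 10122 at day 7 against 5375.4 and 5087.1 untreated.

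Of 38 genes on the B lineage list 35 had a probe set, 22 were tested, 2 were called higher and 0 lower, beside 6.28% and 9.19% of all tested genes, and the median was 0.02. That count is near the share among all genes and is no result about the list. Dntt, the terminal transferase that adds bases to rearranging receptor genes, measured 235 and 120 at day 7 against 74.3 and 73.5 untreated (1.04 ± 0.21, adjusted p = 0.0119). Syk, a kinase below the pre-B receptor that other blood cells also use, measured 685 and 595.0 at day 7 against 468 and 439 untreated (0.48 ± 0.092, adjusted p = 0.00932). The Dntt call ended without either untreated array (adjusted p up to 0.0845), and that of Syk without day 7 replicate 1 or untreated replicate 2 (up to 0.0894). Ebf1, a master factor of B-cell entry, measured 60.8 and 156 at day 7 against 49.2 and 48.5 untreated and did not pass (0.83 ± 0.43, adjusted p = 0.222). Its day 7 arrays split as the stroma genes did, with replicate 2 higher, and the part of stroma RNA in it was not tested. Pax5, which fixes B-cell identity, measured 64.9 and 58.1 at day 7 and 66.2 and 57.6 untreated, so the states overlapped (-0.01 ± 0.099). The receptor gene Il7r measured 73.9 and 52.2 at day 7 and 67.9 and 65.3 untreated (-0.08 ± 0.32), and Flt3 lay below the filter. Of 13 tested genes of the early lymphoid list 1 was called higher and 0 lower, and 8 lay above 0. The call was the chemokine receptor gene Ccr2, which monocytes also carry, with 740.1 and 726 at day 7 against 139 and 149 untreated (2.23 ± 0.10, adjusted p = 1.99e-06).

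Of 21 tested genes of the JAK-STAT feedback and target list 3 were higher and 1 lower, beside 6.28% and 9.19% of all tested genes, with a median of 0.01. Bcl2, which protects lymphoid and other cells from apoptosis, measured 517 and 444 at day 7 against 277 and 311 untreated (0.68 ± 0.091, adjusted p = 0.0021). Pim1, a kinase gene that STAT5 induces, measured 433 and 501 at day 7 against 203 and 182 untreated (1.21 ± 0.21, adjusted p = 0.00618, and 0.0651 without untreated replicate 2). Socs1, a feedback inhibitor of JAK kinases, measured 103 and 92.9 at day 7 against 80.2 and 70.8 untreated (0.31 ± 0.081, adjusted p = 0.0287). The lower call was Spred1, an inhibitor of RAS signalling, with 454 and 618 at day 7 against 854 and 875 untreated (-0.69 ± 0.13, adjusted p = 0.00864). The Spred1 call ended without either untreated array (adjusted p up to 0.0745), and that of Socs1 without day 7 replicate 1 or either untreated array (up to 0.218). The list's higher count was 1 without untreated replicate 2, and its lower count was 4 without day 7 replicate 2 and 0 without either untreated array.

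Genes of cell death were called in both directions. Over the p53 list 2 of 20 genes were higher and 2 lower, beside 6.28% and 9.19% of all tested genes, with a median of -0.04. Those counts are near the shares among all genes and are no result about the list. Pmaip1, the BH3 gene NOXA, fell to 112 and 135 at day 7, against 241 and 226 untreated (-0.85 ± 0.12, adjusted p = 0.00312). Perp, a membrane gene of the p53 list, rose by 1.09 ± 0.17.

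Of 16 tested stem and progenitor genes 4 were higher and 0 lower, with a median of 0.20, and of 15 megakaryocyte genes 5 were higher and 0 lower, with a median of 0.31. Among all tested genes 6.28% were higher and 9.19% lower. Angpt1, the ligand of the TIE2 receptor, rose by 1.09 ± 0.18 (adjusted p = 0.0056), Hlf, a stem cell factor, by 0.68 ± 0.17 and Gfi1b, a factor of red cells and platelets, by 0.70 ± 0.16. Each of these calls ended without some single array, with adjusted p up to 0.0508 for Angpt1 (without untreated replicate 1), 0.146 for Hlf and 0.121 for Gfi1b (without day 7 replicate 1 or either untreated array). The stem list's 4 calls became 2 without day 7 replicate 1, 0 without untreated replicate 1 and 1 without untreated replicate 2. The megakaryocyte list's 5 became 1 without day 7 replicate 1 and 0 without either untreated array. Of 19 tested erythroid genes 2 were higher and 1 lower, counts near the shares among all tested genes. On that list 17 genes lay above 0, and the median was 0.21. Its member Car1, a carbonic anhydrase of early red cells, measured 441 and 124 at day 7 against 62.1 and 73.2 untreated and did not pass (1.60 ± 0.49, adjusted p = 0.0509). In the T and NK list 2 of 10 tested genes were higher and 0 lower, 6 of the 10 lay below 0, and the median was -0.02. Its lead gene Gata3, a factor of T and other lymphoid cells, measured 525 and 499 at day 7 against 298 and 298 untreated (0.75 ± 0.14, adjusted p = 0.00752, and up to 0.0652 without either untreated array). The list had 0 calls without either untreated array and 1 without either day 7 array. In the monocyte and macrophage list 2 of 19 tested genes were higher, among them Ccr2, and 3 lower, with 9 above 0, 10 below 0 and a median of -0.01. Of the lower genes, Fcgr1, a high-affinity IgG receptor, fell to 64.2 and 67.7 at day 7, against 102 and 94.2 untreated (-0.48 ± 0.07, adjusted p = 0.00312). The list's lower count was 2 without any 1 of 3 arrays and 1 without untreated replicate 2, and its higher count was 1 without any of them but day 7 replicate 2.

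ATF4 is the factor of the integrated stress response, and its targets make and import amino acids. Of 22 tested genes of this list 0 were higher and 11 lower, beside 9.19% of all tested genes, with a median of -0.39. Chac1, an enzyme that breaks down glutathione, measured 70.6 and 86.9 on day 7 arrays and 286 and 327 on untreated arrays (-1.77 ± 0.11, adjusted p = 1.47e-05). Mthfd2, an enzyme of mitochondrial folate metabolism, measured 373 and 384 at day 7 against 899 and 832 untreated (-1.16 ± 0.093, adjusted p = 7.34e-05). Asns, asparagine synthetase, measured 875 and 1613 at day 7 against 2991 and 2956 untreated (-1.31 ± 0.22, adjusted p = 0.00602). In all 3 genes both day 7 arrays lay below both untreated arrays, as in every gene called lower. Psat1, of serine synthesis, fell by 0.78 ± 0.12 on the log2 scale (adjusted p = 0.00312), and Atf4 itself measured 435 and 471 at day 7 against 604 and 636 untreated (-0.44, adjusted p = 0.0128). Trib3 and Nupr1, a pseudokinase and a stress-induced nuclear protein, fell by 0.56 ± 0.091 and 0.81 ± 0.14. Outside the list, Gpt2, an alanine transaminase of mitochondria, measured 84.0 and 106 at day 7 against 307 and 294 untreated (-1.52 ± 0.10, adjusted p = 2.27e-05). The calls of Chac1, Mthfd2, Psat1 and Gpt2 held without each single array. That of Asns reached an adjusted p of 0.0538 without untreated replicate 2, that of Nupr1 0.0713 without it, that of Trib3 0.0517 without untreated replicate 1, and that of Atf4 up to 0.108 without day 7 replicate 1 or an untreated array. The list's summed intensity was 15778 and 19534 on day 7 arrays and 23995 and 23333 on untreated arrays, with the lower day 7 sum on replicate 1. The stroma sums of those day 7 arrays were 6332.5 and 10122, and their part in the ATF4 values was not tested. The list count was 7 without day 7 replicate 1, 13 without day 7 replicate 2, 5 without either untreated array and 2 when only these 4 arrays were fitted.

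The element to which ATF4 binds with C/EBP partners was searched as TGATGNAA on both strands. It was found in 3.97% of all windows, in 2.8% of tested genes with a window, in 4.5% of genes called lower and in 7 of 21 genes of the ATF4 list (33.33%). Of the 31 genes with a window that fell more than 2-fold, 5 held it (16.13%), and of the 59 with a window that rose more than 2-fold, 5 did (8.47%). Among genes called higher the share was 3.42%, and on the interferon list 3 of 30 genes held it (10.0%). The stretches from base -200 to base -1 of Chac1 and Asns, the list's lowest genes, are shown with the match in capitals, 5′ to 3′ on the gene's strand.
Chac1, chr2:119351042-119351241, plus strand: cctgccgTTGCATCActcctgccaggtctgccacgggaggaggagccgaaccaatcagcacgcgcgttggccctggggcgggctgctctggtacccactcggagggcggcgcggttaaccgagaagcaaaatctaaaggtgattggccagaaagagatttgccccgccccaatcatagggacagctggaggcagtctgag
Asns, chr6:7693210-7693409, minus strand: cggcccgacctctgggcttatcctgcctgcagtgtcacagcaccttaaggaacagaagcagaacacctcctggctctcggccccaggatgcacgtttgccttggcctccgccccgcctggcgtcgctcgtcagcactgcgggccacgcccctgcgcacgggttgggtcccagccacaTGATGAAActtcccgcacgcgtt
In Chac1 the capitals are the element as read on the opposite strand, and in Asns as read on the gene's strand.

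Lower genes also came from sugar metabolism. Of 25 glycolysis and hypoxia genes 6 were lower and 2 higher, beside 9.19% and 6.28% of all tested genes, with a median of -0.11. The higher count is near the share among all genes. Pfkp, a phosphofructokinase, measured 83.0 and 115 at day 7 against 246 and 237 untreated (-1.18 ± 0.12, adjusted p = 0.000347). Hk2, a hexokinase, and Pgk1, a phosphoglycerate kinase, fell by 0.67 ± 0.11 and 0.54 ± 0.092 on the log2 scale, with adjusted p up to 0.0503 and 0.0523 without untreated replicate 1. The list's lower count was 1 without that array and 3 without day 7 replicate 1 or untreated replicate 2.

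Growth, cell cycle and sterol lists lay lower on day 7 replicate 1 than on replicate 2. Among all tested genes 9.19% were called lower and 6.28% higher. All 24 tested genes of the MYC and ribosome biogenesis list lay below 0, with 10 called lower, 0 higher and a median of -0.34. Odc1, the first enzyme of polyamine synthesis, measured 158 and 278 at day 7 against 480.3 and 459 untreated (-1.10 ± 0.19, adjusted p = 0.00604). Nop16, a nucleolar protein gene, fell by 0.82 ± 0.18. Of 28 cell cycle genes 5 were lower and 0 higher (median -0.24), among them the mitotic checkpoint kinase gene Bub1 (-0.46 ± 0.10) and the cyclin gene Ccne1 (-0.53 ± 0.14). Of 25 sterol and fatty acid genes 7 were lower and 2 higher, with a median of -0.21, and the higher count is near the share among all genes. Idi1, of the mevalonate pathway, measured 263 and 515 at day 7 against 709 and 799 untreated (-0.997 ± 0.24, adjusted p = 0.0212), and the desaturase gene Scd2 was higher, at 2902 and 2971 at day 7 against 1612 and 1744 untreated (0.80 ± 0.075, adjusted p = 0.000215). Per array, the MYC list's median stood at -0.45 on day 7 replicate 1 and at -0.22 on replicate 2, that of the cell cycle list at -0.35 and -0.13, and that of the sterol list at -0.34 and 0.00. Without day 7 replicate 1 the lower counts were 2, 0 and 0 genes, and without day 7 replicate 2 they were 13, 14 and 12, in the same order of lists. Without untreated replicate 2 all 3 were 0. The Odc1 call reached an adjusted p of 0.0503 without that array, and those of Nop16, Bub1, Ccne1 and Idi1 ended without day 7 replicate 1 or either untreated array (adjusted p up to 0.143), while that of Scd2 held. Stroma markers were higher on replicate 2, where these differences were smaller, and their part in that was not tested.

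The 15 lowest calls, which include Chac1, Gpt2 and Asns above, had varied known roles. Gask1b, a Golgi-associated gene, measured 95.9 and 199 at day 7 against 709.5 and 693 untreated (-2.21 ± 0.30, adjusted p = 0.0021), the lowest log2 value of all called genes. Cdh17, a cadherin, measured 202 and 378 at day 7 against 951 and 1061 untreated (-1.80 ± 0.22, adjusted p = 0.00121). P2rx3, an ATP-gated channel, measured 241 and 188 at day 7 against 789.8 and 754 untreated (-1.78 ± 0.21, adjusted p = 0.00106). All 3 genes had day 7 arrays far below the untreated pair. P2ry14, a receptor for UDP-sugars, fell by 1.31 ± 0.21, Nrp1, a receptor of semaphorins and VEGF, by 1.44 ± 0.22, Gsn, the actin-severing protein gelsolin, by 1.46 ± 0.14 and Abcb1b, a drug efflux pump, by 1.35 ± 0.22 on the log2 scale. Hmox1, the haem oxygenase that oxidative stress induces, measured 107 and 234 at day 7 against 548 and 584 untreated (-1.73 ± 0.25, adjusted p = 0.003). Mt2, a metallothionein, measured 557 and 904 at day 7 against 1985 and 2139 untreated (-1.52 ± 0.19, adjusted p = 0.00162). These 9 calls held without each single array. Plau, the urokinase gene, fell by 1.59 ± 0.29, Pilra, an inhibitory receptor, by 1.49 ± 0.32 and Hpgds, which makes prostaglandin D, by 1.35 ± 0.25, and their adjusted p reached 0.0608, 0.115 and 0.0662 without an untreated array (for Pilra also without day 7 replicate 1).

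**Figure D4:**
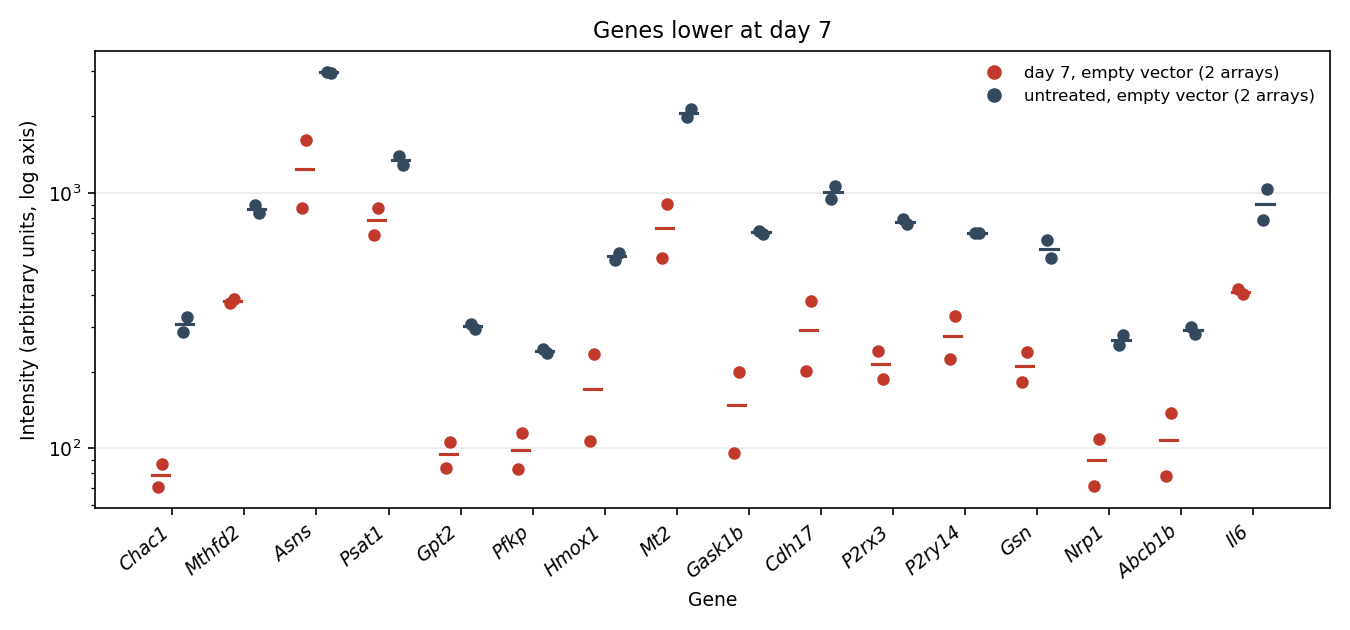
Intensity (arbitrary units, log axis) of 16 genes called lower at day 7, with each point an array and each bar the mean of 2 arrays, day 7 left of untreated. In every gene shown both day 7 arrays lie below both untreated arrays, as in all 1134 genes called lower, and Gask1b has the lowest log2 difference (-2.21).

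Inflammatory and immediate early genes were called in both directions. Of 19 NF-kB and chemokine genes 1 was higher and 5 were lower, beside 6.28% and 9.19% of all tested genes, with a median of 0.00. Il6, the cytokine, measured 420.0 and 401 at day 7 against 784 and 1036 untreated (-1.10 ± 0.16, adjusted p = 0.00312). Ptgs2, the inducible cyclooxygenase, fell by 0.89 ± 0.15 and the chemokine gene Ccl3 by 0.81 ± 0.16. Their adjusted p reached 0.0572 without untreated replicate 2 and, for Ccl3, 0.0878 without day 7 replicate 1 or an untreated array. Of 22 immediate early genes 3 were higher and 2 lower (median 0.25), beside the same shares of all tested genes, and the lower count is near its share. Dusp1, a MAP kinase phosphatase, measured 523 and 676 at day 7 against 234 and 224 untreated (1.32 ± 0.16, adjusted p = 0.00106), and Nr4a2, a nuclear receptor, and Ier3 rose by 0.82 ± 0.10 and 0.78 ± 0.11. Dusp2, another phosphatase of the family, fell by 0.63 ± 0.097. The NF-kB list's lower count was 2 without day 7 replicate 1 or untreated replicate 1 and 1 without untreated replicate 2. The immediate early genes called higher numbered 8 without day 7 replicate 1.

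Between day 7 and day 5 of the empty vector 0 genes passed limma's test, with 795 genes at an unadjusted p under 0.05. The count was 71 without day 7 replicate 2 and 0 without any other of the 4 arrays. Day 5 and day 7 were each set against the same untreated arrays, and day 5 had 1926 calls (15.6%), with 1043 higher (8.45%) and 883 lower (7.16%). In the order untreated, day 5, day 7, the interferon list's sums were 5555.4 and 5639.2, then 22436 and 18881, then 19801 and 17215. The stroma sums were 5375.4 and 5087.1, then 15235 and 11883, then 6332.5 and 10122 in that order. Stroma genes called higher against untreated numbered 28 of 33 at day 5 and 2 of 33 at day 7.

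Cells with TEL-AML1, the fusion of ETV6 and RUNX1, went through the same treatment and have their own untreated arrays. There 968 genes (7.85%) passed at day 7, with 588 higher (4.77%) and 380 lower (3.08%). Of the empty vector's higher calls 299 were also higher with TEL-AML1 (38.58% of the empty vector's and 50.85% of TEL-AML1's), and 226 were lower in both (19.93% and 59.47%). The number called in opposite directions was 0. Across 12337 genes, which are not independent replicates, the log2 responses correlated at 0.709. Over the interferon list the empty vector had 31 of 40 genes higher with a median of 1.03, and TEL-AML1 32 of 40 with a median of 1.72. Over the ATF4 list each had 11 of 22 lower, with medians of -0.39 and -0.40, empty vector first. Other lists had unequal counts of lower genes in the same order: 10 and 0 of 24 on the MYC list, with medians of -0.34 and -0.26, 7 and 0 of 25 on the sterol list, with medians of -0.21 and -0.11, and 5 and 15 of 28 on the cell cycle list, with medians of -0.24 and -0.37. On these 3 lists and the ATF4 list, the test of the difference between responses called 0 genes. Both partner genes of the fusion were slightly higher at day 7 with the empty vector. Runx1 measured 1909 and 1600.2 at day 7 against 1224 and 1248 untreated (0.49 ± 0.11, adjusted p = 0.0141), and Etv6 1528 and 1468 at day 7 against 1183 and 1241 untreated (0.30 ± 0.082, adjusted p = 0.0341). Both calls ended without day 7 replicate 1 or either untreated array, with adjusted p up to 0.0894 and 0.177.

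The test of the difference between the vectors' day 7 responses passed for 10 genes (0.0811%), 3 with the empty vector's difference the higher (0.0243%) and 7 with it the lower (0.0567%). Ccr2 rose by 2.23 ± 0.10 with the empty vector and by 1.22 ± 0.10 with TEL-AML1 (difference 1.01 ± 0.14, adjusted p = 0.0335). Mid1, a microtubule-bound ubiquitin ligase gene, measured 199.9 and 243 at day 7 against 106 and 100.3 untreated with the empty vector (0.99 ± 0.11), while with TEL-AML1 its difference was -0.16 ± 0.11 (adjusted p of the difference 0.0318). Among the 7 were the interferon list's Parp14 and Rsad2. Parp14, a poly-ADP-ribose polymerase, rose by 0.60 ± 0.12 with the empty vector and by 2.11 ± 0.12 with TEL-AML1 (difference -1.51 ± 0.17, adjusted p = 0.0127). Rsad2, the antiviral protein viperin, rose by 0.79 ± 0.13 with the empty vector and by 2.19 ± 0.13 with TEL-AML1 (difference -1.39 ± 0.19, adjusted p = 0.0318). The empty-vector rises of Parp14 and Rsad2 themselves reached adjusted p of up to 0.0822 and 0.0539 without untreated replicate 2, and that of Parp14 also lost its call without untreated replicate 1. Ms4a6c, a membrane protein gene of monocytes, measured 66.8 and 48.7 at day 7 against 48.8 and 49.2 untreated with the empty vector, and 652 and 409 at day 7 against 75.2 and 79.2 untreated with TEL-AML1 (difference -2.35 ± 0.27, adjusted p = 0.0127). The count of 10 became 0 without any single untreated array of either vector.

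**Figure D5:**
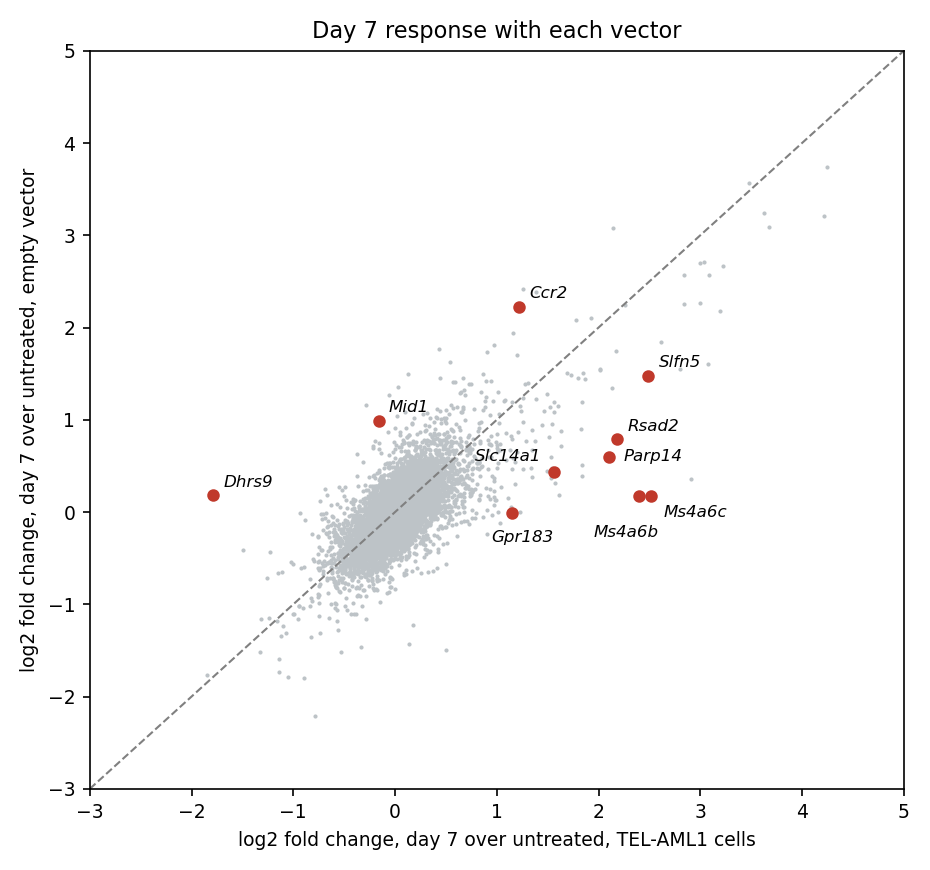
Log2 fold change at day 7 over untreated for each tested gene, empty vector on the vertical axis and TEL-AML1 on the horizontal axis, with equal responses on the dashed line and filled points for the 10 genes whose responses differed. Ms4a6c, Ms4a6b and Parp14 lie below the line with small empty-vector changes (0.17, 0.18 and 0.60), and Dhrs9, Mid1 and Ccr2 lie above it.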

How the data were processed

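RNA of 12 EML1 samples was hybridised to 1-colour Affymetrix arrays, as the labels' protocols describe. The authors deposited 1 processed linear intensity per probe set and array. The background correction, summarisation and normalization behind it are not given in the sources used here. Gene names came from the array's platform annotation, by Entrez ID: of 35556 probe sets, 21218 had 1 gene, 1881 several and 12457 no listed gene. For each gene the probe set of highest mean intensity was used. The test was limma (version 3.58.1, R 4.3.3) on log2(intensity + 16), with 6 group means over all 12 arrays and Benjamini-Hochberg adjustment over 12337 genes at a threshold of 0.05. It was also tested on simulated data in which each gene had the same spread in every group. That cannot show how unequal spreads affect the calls. Genes with a mean intensity at or below the 40th percentile of all probe sets (60.1) were left out. Among 897 genes with several tested probe sets, 1 had called probe sets of opposite direction.

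The genes named are the 15 highest and 15 lowest calls with arrays that do not overlap, up to 6 genes of smallest adjusted p from each list, up to 6 in each direction from each other comparison, and 10 genes of prior interest. Slfn5, Irf9, Stat2, Ifnar1, Ifnar2, B2m, Atf4, Ifih1 and Adipoq fall outside that rule and were chosen after their values were seen. The comparisons, members and lists were chosen with earlier results of these data known. The alternatives varied the pseudocount (1 and 64), the filter, the normalization, the probe-set rule, the variance model, the arrays fitted and the replicate block, and left out each array in turn. Promoter sequences are RefSeq's, and coordinates are 1-based on GRCm38.p6.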

Additional observations from a re-analysis of the deposited data

Results flagged for a closer look

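For 10 genes the test of the difference between the day 7 responses, empty vector minus TEL-AML1, passed in limma at an adjusted p under 0.05. Differences on the log2 scale were positive for Dhrs9 (1.97 ± 0.22, adjusted p = 0.0127), Mid1 (1.15 ± 0.16) and Ccr2 (1.01 ± 0.14). They were negative for Ms4a6c (-2.35 ± 0.27), Ms4a6b (-2.23 ± 0.28), Parp14 (-1.51 ± 0.17), Rsad2 (-1.39 ± 0.19), Gpr183 (-1.16 ± 0.15), Slc14a1 (-1.13 ± 0.12) and Slfn5 (-1.01 ± 0.097). Dhrs9, a short-chain dehydrogenase gene, measured 74.2 and 104 at day 7 and 82.5 and 69.9 untreated with the empty vector, and 96.3 and 115 at day 7 and 401 and 403 untreated with TEL-AML1. Its response therefore lay in the TEL-AML1 arrays, where the untreated cells stood high and the day 7 cells did not. Gpr183, an oxysterol receptor gene that guides lymphocytes, measured 73.5 and 54.8 at day 7 and 61.0 and 67.3 untreated with the empty vector, and 485 and 521 at day 7 and 229 and 206 untreated with TEL-AML1. Slc14a1, a urea transporter gene, was higher at day 7 with both vectors (0.44 with the empty vector, 1.56 with TEL-AML1). No difference passed when any 1 untreated array was left out.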

How the results depend on the processing

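Of 104 genes checked by name, 88 were called in the empty-vector comparison, 49 of them without each single array and 44 in each setting run. Of the 88, 0 changed sign in any setting, and of the 16 not called, 8 did. The empty vector's 1909 day 7 calls (775 higher, 1134 lower) became 290 (159 and 131) with only the groups compared and 658 (308 and 350) with the 6 empty-vector arrays, both fits on fewer arrays. Leaving out 1 array gave 298 to 2799 calls (166 to 1205 higher, 132 to 1594 lower). Day 7 against day 5 gave 0 to 71 (0 to 22 and 0 to 49). Day 5 against untreated gave 202 to 1488 (139 to 722 higher and 63 to 944 lower), 937 (650 and 287) with the 6 empty-vector arrays, and 692 higher with the filter at the 60th percentile. TEL-AML1 at day 7 gave 200 to 512 (148 to 332 and 49 to 180) without 1 array, 2230 (1259 and 971) with array weights, and 1643 (925 and 718) with only the groups compared. The difference between responses, 10 genes (3 higher, 7 lower), gave 0 to 75 without 1 array (0 to 22 and 0 to 53), 5 (1 and 4) with no filter, 3 (1 and 2) with only the groups compared, 1 higher with median centring and 11 lower with array weights. Fits on fewer arrays gave fewer calls in some comparisons and more in others. The cause of these changes was not tested.

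For same-numbered arrays of the empty vector, deviations from the group means correlated at -0.0641 between day 7 and untreated. The values were -0.165 between day 7 and day 5 and -0.213 between day 5 and untreated. These values set different days against each other and cannot show whether same-numbered arrays of 1 day shared a batch. At day 7, 31 of 33 stroma genes were higher on replicate 2 than on replicate 1 with the empty vector, and 29 of 33 with TEL-AML1. At day 5 of the empty vector 3 of 33 were. A batch shared within a day was not tested. With the replicate block the empty-vector comparison had 1827 calls (752 higher, 1075 lower), and the difference between responses had 1 higher call.

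With 2 arrays a group, each call rests on a spread shared by all groups, and with 1 array left out the lone array is assumed to vary like the others. Dim genes near the array background have compressed differences. The authors' normalization is unknown, and median centring moved the median of all genes to -0.06.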
